A study of Mus musculus with 24 samples.

Results

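The data described here are the H3K4me3 levels at the start sites of forkhead, T-box and Gata transcription factor genes in mouse cerebral cortex. A region of the read count tables was a member when it overlapped an annotated transcription start site (TSS, GENCODE M1 on mm9) of a protein-coding gene named Fox plus a letter and a number, Tbx plus a number or Gata plus a number, and the rule left out *Foxc1*, *Foxc2*, *Foxd1*, *Foxj1* and *Tbx18*. Of the 17993 regions, 27 were members, and they belonged to 26 of the 56 genes that fit the names. They were 21 regions of 20 forkhead genes (of 38), 4 regions of 4 T-box genes (of 12) and 2 regions of 2 Gata genes (of 6). *Foxp4* was the only gene with 2 member regions. No region of the list overlapped a TSS of the other 30 genes.

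Trimethylation of lysine 4 of histone H3 marks the promoters of active genes and also, together with a repressive mark, promoters that are held silent in many cell types. Forkhead, T-box and Gata factors are 3 families of DNA-binding proteins, each named for its DNA-binding domain or its target letters, and many members decide cell fates in the embryo. In the brain, the Foxp and Foxo factors act in neurons, whereas *Gata2* is known from blood progenitors and endothelium, *Foxf2* from mesenchyme and the cells around brain vessels, and *Tbx1*, *Tbx2*, *Tbx3* and *Tbx15* from heart, limb, pharynx and skin.

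All mice were C57BL/6 and carried histone H2B with a FLAG tag, knocked into the *Rosa26* locus under the ubiquitous CAG promoter. In the line labelled *Rosa* CAG-H2B-FLAG (here *Rosa*), the stop cassette had been removed in the germ line by Vasa-Cre, so the tag is meant to be in every cell. In the line labelled *Rosa26* CAG-floxed-pA-H2B-FLAG/ CaMKCreERT2 (here *Camk2a*), Cre under the *Camk2a* promoter removes the cassette after tamoxifen, which limits the tag to *Camk2a*-positive neurons. Those mice were males that received tamoxifen at 1 mg per day on 5 days from an age of 8 weeks and were killed a month later. The age of the *Rosa* mice was not given in the sources used here, nor any tamoxifen for them. Each lysate pooled the cortex of 2 animals. Single ChIP-Seq precipitated all H3K4me3 chromatin, so it read untagged cells too, and tandem ChIP-Seq (tChIP-Seq) first precipitated FLAG-tagged chromatin and then H3K4me3. There were 3 libraries for each line and kind, 12 in all, with total counts from 6316125 to 8644574 in *Rosa* single ChIP-Seq, 4063200 to 4233144 in *Camk2a* single ChIP-Seq, 1457261 to 1828371 in *Rosa* tChIP-Seq and 2709729 to 3049130 in *Camk2a* tChIP-Seq. Levels are given as CPM, the reads of a region relative to the total of its library as adjusted by TMM normalization over the 12 libraries. Differences are given as log2FC, the log2 fold change, with its standard error (SE). Regions with an adjusted p under 0.01 (edgeR quasi-likelihood F test, Benjamini-Hochberg over all 17993 regions) were called higher or lower.

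The 250 bases before the TSS are printed for 4 member regions, because their regions carry the line differences described further on: *Foxp4* for its 2 starts, and *Gata2* and *Tbx3* among the largest decreases. CG dinucleotides are in capitals, sequences are from mm9, 5′ to 3′ on the strand of the gene. The first 2 belong to *Foxp4*, the only gene with 2 member regions, with the upstream promoter at chr17:48061595-48061844 (minus strand) and the inner start at chr17:48015903-48016152 (minus strand).
*Foxp4* first region: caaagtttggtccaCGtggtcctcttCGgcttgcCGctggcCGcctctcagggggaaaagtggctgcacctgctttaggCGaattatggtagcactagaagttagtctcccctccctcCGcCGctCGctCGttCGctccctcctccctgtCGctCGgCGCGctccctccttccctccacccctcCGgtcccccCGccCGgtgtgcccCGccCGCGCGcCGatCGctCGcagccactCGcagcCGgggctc
*Foxp4* second region: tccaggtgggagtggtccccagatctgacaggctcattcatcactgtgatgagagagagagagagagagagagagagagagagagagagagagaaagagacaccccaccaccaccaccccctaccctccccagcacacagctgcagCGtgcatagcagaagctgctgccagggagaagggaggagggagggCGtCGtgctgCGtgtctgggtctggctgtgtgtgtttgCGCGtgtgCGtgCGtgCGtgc
*Gata2* (chr6:88148408-88148657, plus strand): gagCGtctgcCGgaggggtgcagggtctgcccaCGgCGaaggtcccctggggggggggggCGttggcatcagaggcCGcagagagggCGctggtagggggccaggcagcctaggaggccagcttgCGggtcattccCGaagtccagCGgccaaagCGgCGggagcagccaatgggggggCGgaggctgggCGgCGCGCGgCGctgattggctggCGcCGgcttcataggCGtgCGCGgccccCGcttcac
*Tbx3* (chr5:120120621-120120870, plus strand): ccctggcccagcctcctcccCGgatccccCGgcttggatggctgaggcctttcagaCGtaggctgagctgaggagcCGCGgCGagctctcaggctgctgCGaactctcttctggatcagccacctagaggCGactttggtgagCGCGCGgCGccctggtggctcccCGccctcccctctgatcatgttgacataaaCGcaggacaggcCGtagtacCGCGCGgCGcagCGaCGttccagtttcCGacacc
The window before the start in the second *Foxp4* region held 9 CG dinucleotides and a long run of alternating g and a, against 26 before the upstream *Foxp4* start. The windows of *Gata2* and *Tbx3* held 24 and 22. The *Gata2* window lies before an inner start, 4773 bp downstream of the most upstream annotated TSS of the gene. Of the 250 bases before the *Tbx3* start, only 44 lie in its region. The median was 22 over the 27 member windows and 15 over the 14263 windows before a TSS in a region of any protein-coding gene.

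As whole regions, members were wider and richer in CpG than the 12985 regions at a TSS of any protein-coding gene. Their median width was 2778 bp against 2083 bp, and their median ratio of observed to expected CpG was 0.712 against 0.606. The second *Foxp4* region stood at 0.292, below all but 3.80% of those regions, and *Foxn2* at 0.923 was the highest member. Some regions covered the gene itself. The *Foxl2* region (4414 bp, chromosome 9, 98855105-98859518) and the *Foxq1* region (4133 bp, chromosome 13, 31649267-31653399) held the whole of their 1-exon genes, and the *Foxf2* region (7336 bp, chromosome 13, 31715711-31723046) held 96.0% of its gene. *Foxf2* and *Gata2* (6830 bp) were the widest members, wider than 99.8% and 99.6% of regions at a protein-coding TSS. In contrast, the *Gata3* region (676 bp, chromosome 2, 9800046-9800721) sat 11434 bp inside the gene at an inner start. The regions of 8 members also contained the TSS of another gene. For *Foxm1*, *Foxj3* and *Foxq1* this was a protein-coding gene (*5930416I19Rik*, *AA415398* and *A530084C06Rik*). For *Foxd2*, *Foxj2*, *Foxl2*, *Foxo1* and *Tbx3* it was a gene not annotated as protein-coding. The reads of such a region are not divided between its genes. The binding letters of the families themselves were rare in these windows, searched on both strands. TGTTTAC (forkhead) occurred in 1 of 27 member windows, that of *Foxa1*, and in 1.96% of all windows. AGGTGTGA (T-box) occurred in 0 of 27 and in 0.631%. Of the letters bound by Gata factors, AGATAA occurred in 0 of 27 and in 5.22% of all windows, and TGATAA in 1 of 27, that of *Foxn3*, and in 3.50%. A window could hold both, and a match of letters is a description, not a binding site.

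H3K4me3 levels per kb of region, averaged over the 12 libraries, spanned from 7.57 to 53.4 CPM per kb among the members. The highest were *Foxo3*, a stress-response factor held in the cytoplasm by Akt, at 53.4, then *Foxj3* at 53.3 and *Foxn2* at 50.3, followed by *Foxk2*, a repressor of autophagy genes, at 46.0. The lowest were *Gata3* at 7.57, *Foxi3*, a factor of ectodermal placodes, at 8.47, *Tbx15* at 8.85 and *Tbx1* at 9.45. In CPM per region, the *Foxo3* libraries read 264.9, 265.5 and 268.5 in *Rosa* single ChIP-Seq, 254.0, 241.5 and 237.0 in *Camk2a* single ChIP-Seq, 207.7, 239.2 and 237.5 in *Rosa* tChIP-Seq and 251.0, 218.7 and 221.0 in *Camk2a* tChIP-Seq. The lowest and the highest library thus both belonged to *Rosa*. The order at the bottom differed between groups. Per kb, *Gata3* read 18.8 CPM in *Rosa* tChIP-Seq, above *Tbx3* at 16.5, and 1.91 in *Camk2a* tChIP-Seq, where *Tbx3* at 2.27 and *Gata2* at 3.38 were the next lowest and *Foxi3* read 17.5. The order of neighbours at the top is not resolved, since *Foxo3* and *Foxj3* differed by less than the spread between libraries. At *Gata3*, the counts themselves were small, 25 to 31 in *Rosa* single ChIP-Seq, 7 to 15 in *Camk2a* single ChIP-Seq, 19 to 25 in *Rosa* tChIP-Seq and 2 to 5 in *Camk2a* tChIP-Seq. These counts limit the precision of its fold changes more than for most other members.

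**Figure D1:**
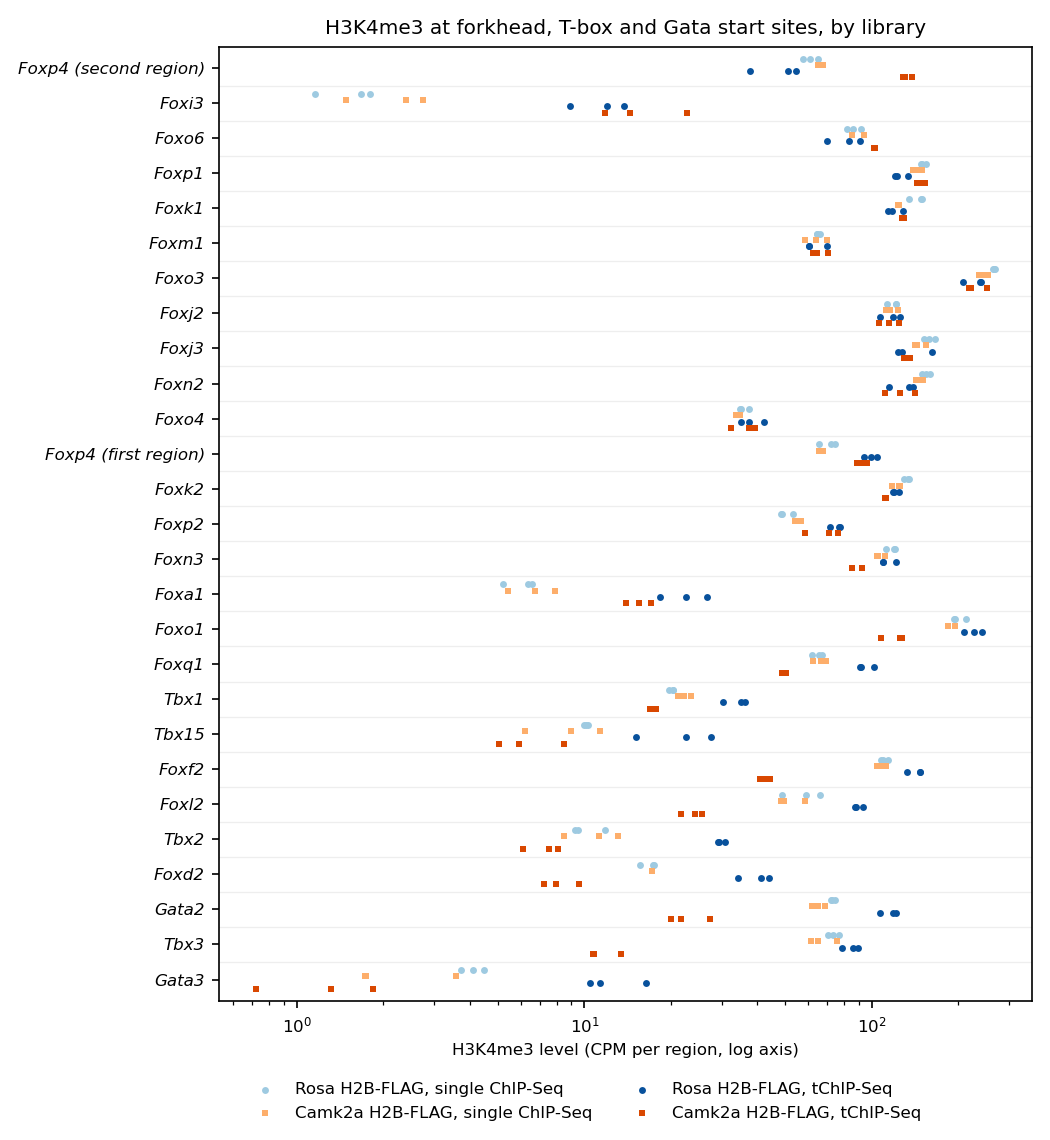
H3K4me3 level of each of the 27 member regions in each of the 12 libraries, as CPM per region on a log axis, with circles for *Rosa* and squares for *Camk2a* and darker shades for tChIP-Seq. Regions are ordered by the line difference in tChIP-Seq, and from *Foxo1* down the *Camk2a* tChIP-Seq squares lie left of the *Rosa* tChIP-Seq circles.

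The main question of the design is which chromatin differs when the tag is limited to *Camk2a*-positive neurons. Between the lines in tChIP-Seq, 12 of the 27 member regions (44.4%) were lower and 3 (11.1%) were higher in *Camk2a* than in *Rosa*. Over all regions, 14.6% were lower and 17.0% were higher. The lower members comprised both Gata regions, all 4 T-box regions, 4 of 6 regions of forkhead genes known from patterning, mesenchyme, endothelium or epithelia (*Foxd2*, *Foxf2*, *Foxl2* and *Foxq1*) and 2 of 15 regions of neural or widely used forkhead genes (*Foxo1* and *Foxn3*). The higher ones were the second *Foxp4* region, *Foxo6* and *Foxp1*. The division of the forkhead genes into these groups was made with earlier results of these data known and is a description only. The median log2FC was -0.13 over the members and 0.00 over all regions. The libraries of the lines did not overlap in CPM in 17 of the 27 members and in 48.4% of all regions, so that a gap between the groups is common in this comparison. With fewer marked cells and less mark per cell, a bulk level falls in the same way, and these data cannot tell the 2 apart.

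At the inner start of *Gata2* (chromosome 6, 88145974-88152803), the tChIP-Seq libraries read 107, 122 and 119 CPM in *Rosa* and 20.0, 27.4 and 21.7 CPM in *Camk2a*. The lowest *Rosa* library was well above the highest *Camk2a* library, and the log2 fold change was -2.32 (SE 0.111, adjusted p = 1.07e-30), a factor of 4.99. *Gata3*, which directs T cell and inner ear development, fell from 10.4, 11.3 and 16.4 CPM to 1.31, 0.722 and 1.84 CPM, a log2FC of -3.22 (SE 0.382, adjusted p = 1.75e-11), which ranked 17963 of 17993. Its *Camk2a* libraries held 4, 2 and 5 reads, against 20, 19 and 25 in *Rosa*.

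Of the T-box genes, *Tbx3* (chromosome 5, 120120827-120125962) read 86.1, 78.7 and 89.9 CPM in *Rosa* and 13.4, 10.8 and 10.7 CPM in *Camk2a*, with a log2FC of -2.84 (SE 0.138, adjusted p = 1.98e-30). This was a factor of 7.18, the largest among the T-box members. *Tbx2* (chromosome 11, 85646042-85647232), the close paralog of *Tbx3*, read 30.8, 29.2 and 29.5 CPM against 7.55, 6.13 and 8.10 CPM, with a log2FC of -2.03 (SE 0.202, adjusted p = 1.75e-14). The *Tbx15* region (chromosome 3, 99057223-99058556) lay at an inner start, 13379 bp downstream of the most upstream annotated TSS. It read 15.1, 22.7 and 27.6 CPM against 5.91, 5.05 and 8.47 CPM, a log2FC of -1.71 (SE 0.239, adjusted p = 3.39e-09). The smallest T-box difference was that of *Tbx1* (chromosome 16, 18585057-18587528), at 35.0, 30.4 and 36.1 CPM against 17.7, 17.0 and 16.9 CPM, with a log2FC of -0.96 (SE 0.161, adjusted p = 4.44e-07). In each T-box region, all *Rosa* libraries lay above all *Camk2a* libraries.

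Among the forkhead genes of patterning, mesenchyme and epithelia, *Foxd2* (chromosome 4, 114580391-114582275) read 43.8, 41.1 and 34.1 CPM in *Rosa* tChIP-Seq and 7.22, 7.94 and 9.58 CPM in *Camk2a* tChIP-Seq, a log2FC of -2.27 (SE 0.184, adjusted p = 1.61e-18). *Foxl2*, the granulosa cell factor, read 88.2, 87.7 and 93.2 CPM against 24.3, 25.6 and 21.7 CPM, with a log2FC of -1.90 (SE 0.115, adjusted p = 4.46e-25). *Foxf2* read 148, 147 and 132 CPM against 44.3, 40.8 and 42.4 CPM, with a log2FC of -1.74 (SE 0.0894, adjusted p = 4.92e-29). *Foxq1*, whose region lies 62311 bp from that of *Foxf2*, read 91.3, 101 and 91.8 CPM against 49.9, 48.7 and 50.1 CPM, a log2FC of -0.93 (SE 0.0960, adjusted p = 8.92e-14). The groups did not overlap in any of these 4 regions. The remaining members of this group were not called. *Foxa1*, a pioneer factor of endoderm, read 26.6, 22.7 and 18.4 CPM against 17.1, 15.5 and 14.0 CPM (log2FC -0.54, adjusted p = 0.0132), and *Foxi3* read 12.0, 8.95 and 13.8 CPM against 11.8, 22.7 and 14.4 CPM (0.49, adjusted p = 0.0837).

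**Figure D2:**
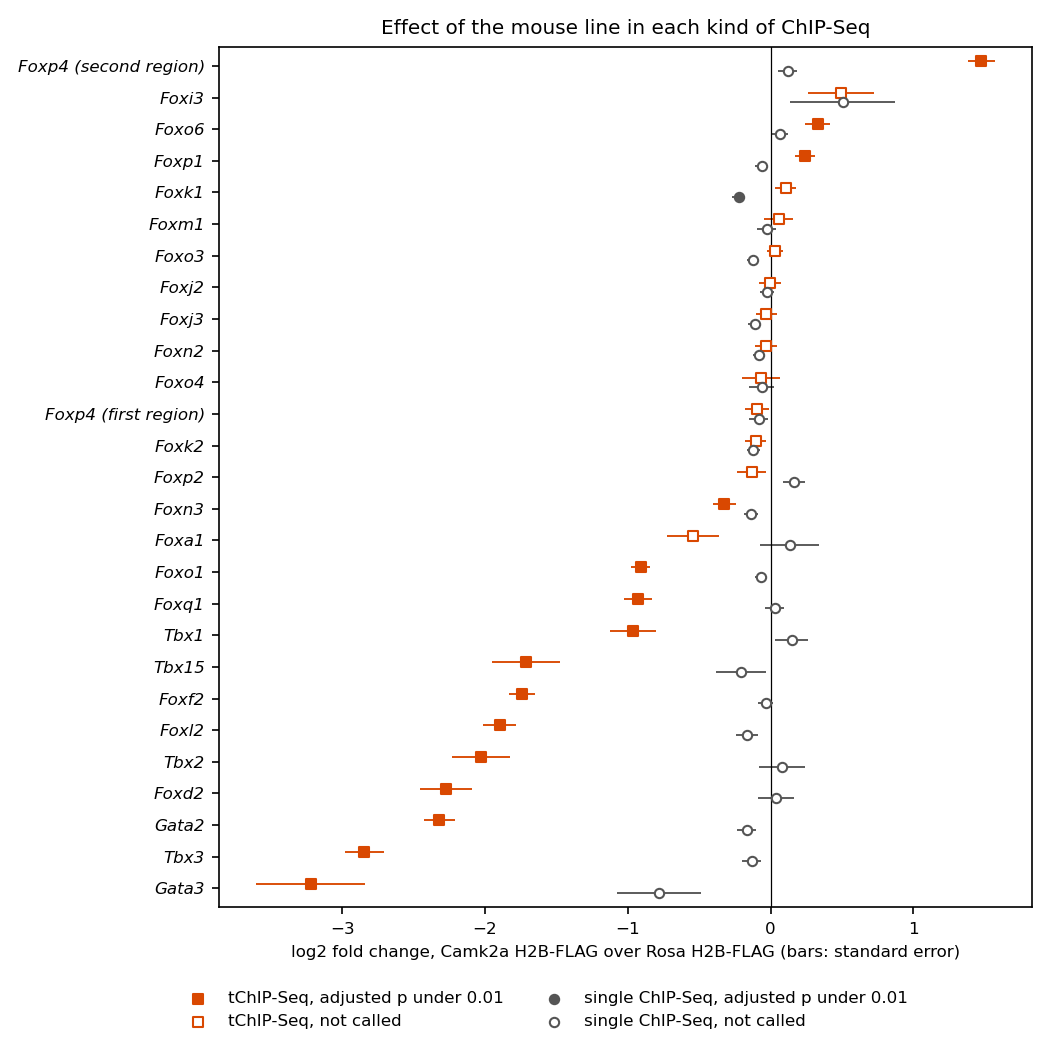
Log2 fold change of *Camk2a* over *Rosa* in tChIP-Seq (squares) and in single ChIP-Seq (circles) for the 27 member regions, with standard errors as bars and filled symbols for an adjusted p under 0.01. The tChIP-Seq values spread from -3.22 to 1.48, whereas the single ChIP-Seq values stay between -0.78 and 0.50.

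The Foxo genes did not move together. *Foxo1* (chromosome 3, 52071157-52076075) read 227, 242 and 209 CPM in *Rosa* tChIP-Seq and 127, 125 and 108 CPM in *Camk2a* tChIP-Seq, with no overlap and a log2FC of -0.91 (SE 0.0658, adjusted p = 5.32e-21). *Foxo6*, the family member known from hippocampal and cortical neurons, was higher in *Camk2a* (chromosome 4, 119957754-119960976). It read 102, 101 and 102 CPM against 90.8, 69.8 and 83.3 CPM in *Rosa* (log2FC 0.33, SE 0.0866, adjusted p = 0.00121). *Foxo3* (0.03, adjusted p = 0.721) and *Foxo4* (-0.07, adjusted p = 0.726) were not called, with means of 228 ± 17.7 and 230 ± 18.0 CPM for *Foxo3* in *Rosa* and *Camk2a* and 38.3 ± 3.62 and 36.4 ± 3.60 CPM for *Foxo4* (SD, n = 3 each). The call of *Foxo6* rested on replicate 2 of *Rosa* tChIP-Seq, without which its adjusted p was 0.0509, and it was not made with library totals (0.0124) or DESeq2 (0.0147).

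Foxp factors are repressors that act in cortical and striatal neurons, and *Foxp2* is known for its part in speech. *Foxp1* (chromosome 6, 98972932-98979311), at an inner start 237590 bp downstream of the most upstream annotated TSS, read 153, 144 and 146 CPM in *Camk2a* and 123, 120 and 134 CPM in *Rosa* (log2FC 0.24, SE 0.0703, adjusted p = 0.00324). This small difference was not called in 7 of 15 alternatives, with an adjusted p of up to 0.0408. *Foxp2* was not called (-0.13, adjusted p = 0.297), at 58.4, 76.1 and 70.7 CPM in *Camk2a* and 71.5, 76.9 and 77.4 CPM in *Rosa*.

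*Foxp4* lies on the minus strand of chromosome 17. Its first region (48060008-48062523) held the most upstream TSS and the starts of 5 coding transcripts. Its second region (48013413-48016589) lay inside the gene, 43418 bp away, across exons 6 to 9 of the coding transcripts, with 17.5% of its bases exonic. The only annotated start in it was that of a transcript not marked as coding, 45692 bp downstream of the most upstream TSS. In tChIP-Seq, the second region read 51.1, 37.6 and 54.5 CPM in *Rosa* and 129, 130 and 138 CPM in *Camk2a*. These groups were far apart, with a log2FC of 1.48 (SE 0.0950, adjusted p = 1.13e-23), a factor of 2.78 and rank 276 of 17993. The first region read 99.1, 104 and 93.8 CPM against 92.2, 96.3 and 88.8 CPM, which overlapped (log2FC -0.10, adjusted p = 0.376).

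Within a library, the count of the second *Foxp4* region divided by that of the first does not depend on the scaling between libraries. This ratio was 0.516, 0.360 and 0.580 in *Rosa* tChIP-Seq and 1.40, 1.35 and 1.55 in *Camk2a* tChIP-Seq, without overlap. In single ChIP-Seq it was 0.993, 0.845 and 0.770 in *Rosa* and 0.993, 0.993 and 1.01 in *Camk2a*, which overlapped. The mean log2 ratio was 1.59 higher in *Camk2a* than in *Rosa* in tChIP-Seq and 0.206 higher in single ChIP-Seq. With 3 libraries against 3, the 2-sided exact permutation p was 0.1 in tChIP-Seq, the smallest this design can give, and 0.3 in single ChIP-Seq. From single to tChIP-Seq, the mean log2 ratio was 0.521 higher in *Camk2a* and changed by -0.861 in *Rosa*, both without overlap and with an exact permutation p of 0.1.

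**Figure D3:**
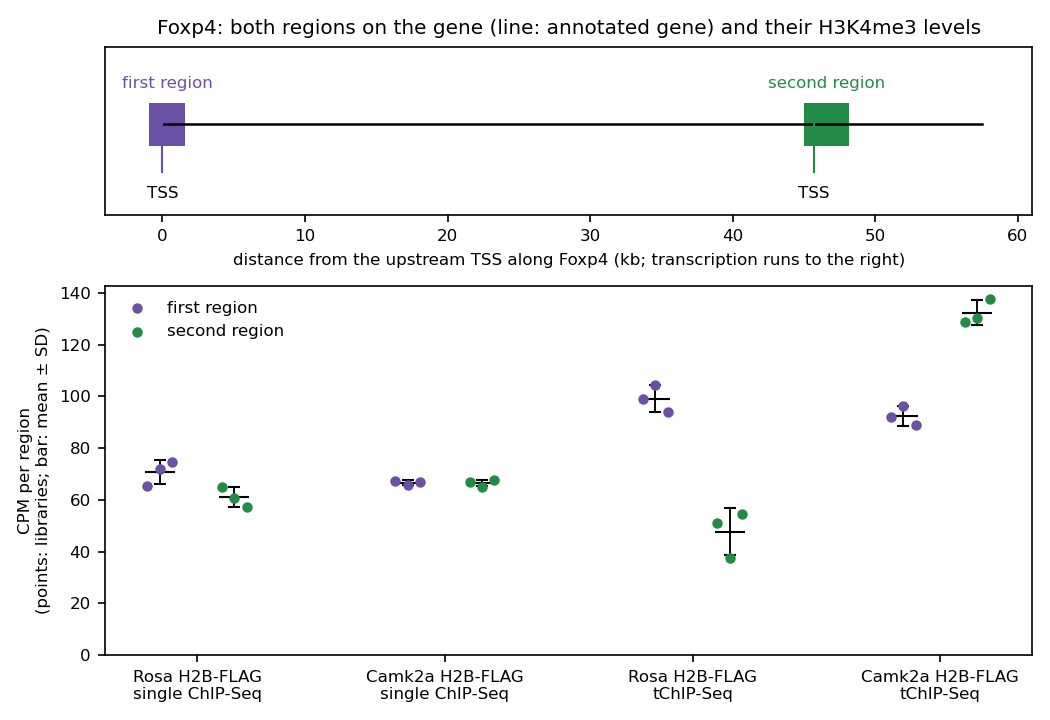
Top, both *Foxp4* regions (boxes) on the annotated gene (line), as distance in kb from the most upstream TSS, with the TSS of each region marked. Bottom, CPM of both regions in each library with mean and SD for each group; the second region is above the first in the 3 *Camk2a* tChIP-Seq libraries and below it in the 3 *Rosa* tChIP-Seq libraries.

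The other widely used forkhead genes differed little between the lines in tChIP-Seq. The region of *Foxn3*, a checkpoint factor, lay at an inner start, 56277 bp downstream of the most upstream annotated TSS. It read 92.2, 92.4 and 85.5 CPM in *Camk2a* and 110, 121 and 110 CPM in *Rosa* (log2FC -0.33, SE 0.0802, adjusted p = 0.000532). This call was lost without replicate 2 of *Rosa* tChIP-Seq (adjusted p = 0.0125). *Foxk1*, *Foxk2*, *Foxj2*, *Foxj3*, *Foxn2* and *Foxm1*, the last a driver of mitotic genes, were not called, with log2FC from -0.11 (*Foxk2*) to 0.10 (*Foxk1*). For *Foxk2* the libraries read 112, 112 and 112 CPM in *Camk2a* and 124, 120 and 118 CPM in *Rosa*, and for *Foxj3* 134, 136 and 129 CPM against 127, 124 and 162 CPM. *Foxn2* read 141, 126 and 112 CPM against 139, 135 and 115 CPM. The groups did not overlap for *Foxk2* and overlapped for *Foxj3* and *Foxn2*. They overlapped too for *Foxj2*, *Foxk1* and *Foxm1*, whose means were 115 ± 8.96 against 117 ± 9.55, 128 ± 1.12 against 120 ± 7.65 and 65.9 ± 4.12 against 63.5 ± 5.55 CPM (SD, n = 3 each).

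The same comparison in single ChIP-Seq asks whether the lines differed before the tag was selected. Of the 27 members, 1 was lower and 0 were higher in *Camk2a*, against 1.22% and 0.928% of all regions. The region called was *Foxk1*, a partner of Sin3 repressors (chromosome 5, 142876933-142880386), at 123, 125 and 123 CPM in *Camk2a* and 135, 148 and 149 CPM in *Rosa*. Its log2FC of -0.22 (SE 0.0465, adjusted p = 0.000604) was small, and it was not called with DESeq2 (adjusted p = 0.0904) or without replicate 2 of *Rosa* single ChIP-Seq (0.0132). *Gata2* read 74.6, 72.1 and 73.0 CPM in *Rosa* and 65.2, 61.8 and 68.8 CPM in *Camk2a*, and *Tbx3* read 77.1, 73.3 and 70.7 CPM against 61.5, 64.9 and 75.8 CPM. Neither was called (adjusted p = 0.0918 and 0.203). The second *Foxp4* region read 65.0, 60.8 and 57.4 CPM in *Rosa* and 67.0, 65.1 and 67.5 CPM in *Camk2a* (log2FC 0.12, adjusted p = 0.292). The largest difference in size was that of *Gata3*, at 4.49, 3.71 and 4.09 CPM against 1.72, 3.58 and 1.75 CPM (log2FC -0.78, SE 0.295, adjusted p = 0.0857).

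Whether the line effect in tChIP-Seq exceeded that in single ChIP-Seq was tested as an interaction over the 12 libraries. The term was called negative in 11 members (40.7%) and positive in 3 (11.1%), against 13.2% and 13.7% of all regions, and was not called in the other 13. The most negative were *Tbx3* at -2.72 (SE 0.158, adjusted p = 4.42e-43), *Gata3* at -2.47 (SE 0.535, adjusted p = 3.71e-05), *Foxd2* at -2.32 (SE 0.230, adjusted p = 4.67e-19) and *Gata2* at -2.16 (SE 0.131, adjusted p = 1.37e-40). *Tbx2*, *Foxl2*, *Foxf2*, *Tbx15*, *Tbx1*, *Foxq1* and *Foxo1* followed, from -2.12 to -0.85. Positive terms were found for the second *Foxp4* region at 1.35 (SE 0.118, adjusted p = 2.29e-23), *Foxk1* at 0.32 (SE 0.0875, adjusted p = 0.00146) and *Foxp1* at 0.30 (SE 0.0835, adjusted p = 0.00186). For *Foxk1* the term combined the lower single ChIP-Seq level in *Camk2a* with no call in tChIP-Seq. With library totals in place of TMM, the line comparison in tChIP-Seq gave 1 member higher and 13 lower and the interaction 1 and 13, and *Foxp1* and *Foxk1* lost their interaction calls. Both also lost them without replicate 1 of *Rosa* tChIP-Seq (adjusted p = 0.0122 and 0.017), and *Foxp1* without replicate 2 (0.0128) or without replicate 1 of *Camk2a* tChIP-Seq (0.0107). Over all regions, library totals turned 3062 higher and 2620 lower in tChIP-Seq into 2570 and 3315.

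tChIP-Seq against single ChIP-Seq compares tagged chromatin with all chromatin of the same line. The paper reported sites that differed between these kinds in *Rosa* and proposed biases of the procedure or of the tagged histone as possible reasons. It therefore rested its later quantitative analyses mainly on tChIP-Seq of both lines. The part of such biases in the values below was not tested. In *Rosa*, where the tag is meant to be in all cells, 14 members (51.9%) were higher and 6 (22.2%) lower in tChIP-Seq, against 24.7% and 22.5% of all regions. In *Camk2a*, 5 members (18.5%) were higher and 9 (33.3%) lower, against 25.3% and 22.6%. Both comparisons share a group with the line comparisons above. In *Rosa*, all 6 regions of the patterning forkhead genes, both Gata regions and 3 of 4 T-box regions were higher, whereas the neural and widely used forkhead regions divided into 3 higher, 6 lower and 6 not called.

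The members at the lowest levels rose most in *Rosa* tChIP-Seq. *Foxi3* (chromosome 6, 70906163-70907095) went from 1.16, 1.68 and 1.80 CPM to 12.0, 8.95 and 13.8 CPM (log2FC 2.89, SE 0.309, adjusted p = 2.98e-19). It rose as much in *Camk2a*, from 1.48, 2.39 and 2.74 CPM to 11.8, 22.7 and 14.4 CPM (2.86, SE 0.266, adjusted p = 5.33e-20), and its interaction was not called (adjusted p = 0.977). *Foxa1* (chromosome 12, 58646366-58647316) rose in both lines, from 5.21, 6.58 and 6.38 CPM by 1.92 in *Rosa* (adjusted p = 4.11e-21) and from 5.42, 7.87 and 6.73 CPM by 1.22 in *Camk2a* (adjusted p = 7.71e-08). *Gata3* and *Tbx2* rose in *Rosa*, by 1.62 (adjusted p = 1.05e-09) and 1.54 (adjusted p = 1.06e-19), with single ChIP-Seq levels of 9.27, 11.8 and 9.49 CPM for *Tbx2*. In *Camk2a* neither was called, at log2FC of -0.86 (adjusted p = 0.121) and -0.59 (adjusted p = 0.0181). *Tbx2* read 13.1, 11.2 and 8.47 CPM in the single ChIP-Seq libraries of that line.

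This went with the level across the whole region list. A limit of 25 CPM, chosen after the values had been seen and applied to the single ChIP-Seq level of the other line, put 7 members below it (*Foxa1*, *Foxd2*, *Foxi3*, *Gata3*, *Tbx1*, *Tbx15* and *Tbx2*). In *Rosa*, all 7 were higher in tChIP-Seq, as were 48.6% of all 6410 regions below the limit, against 11.4% of the regions at or above it. In *Camk2a*, 2 of the 7 were higher and 1 was lower, where 38.0% of all regions below the limit and 18.1% of the rest were higher. The median log2FC below the limit was 1.54 for the 7 members and 0.70 for all regions in *Rosa*, and -0.45 and 0.41 in *Camk2a*. Among the 20 members above the limit, 7 rose and 6 fell in *Rosa*, and 3 rose and 8 fell in *Camk2a*. The part of a low level in single ChIP-Seq in these differences was not tested.

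In *Camk2a*, the largest decreases from single to tChIP-Seq were those of *Tbx3*, *Gata2*, *Foxf2* and *Foxl2*. *Tbx3* changed by -2.52 (SE 0.128, adjusted p = 1.73e-46), from a single ChIP-Seq level of 67.4 ± 7.43 CPM to 11.7 ± 1.56 CPM (SD, n = 3 each). *Gata2* changed by -1.50 (SE 0.108, adjusted p = 3.78e-29) and *Foxf2* by -1.34 (SE 0.0812, adjusted p = 2.62e-37), the latter from 105, 108 and 112 CPM. *Foxl2*, at 49.5, 48.4 and 58.6 CPM in single ChIP-Seq, changed by -1.12 (SE 0.113, adjusted p = 1.09e-17). The other decreases called were *Foxd2* (-1.06), *Foxo1* (-0.67), *Foxq1* (-0.41), *Foxn3* (-0.25) and *Foxn2* (-0.20). In the same line, the second *Foxp4* region rose by 0.99 (SE 0.0675, adjusted p = 1.48e-31), the first by 0.47 (SE 0.0744, adjusted p = 1.21e-08) and *Foxp2* by 0.29 (SE 0.0853, adjusted p = 0.00218). The libraries of the kinds did not overlap in these Foxp regions, which held for 20 of the 27 members and for 61.6% of all regions. The calls of *Foxp2*, *Foxn2* and *Foxn3* were each lost without a single library, at adjusted p up to 0.0722 for *Foxp2* (without replicate 2 of *Camk2a* tChIP-Seq), 0.0821 for *Foxn2* and 0.0107 for *Foxn3* (both without replicate 3 of *Camk2a* tChIP-Seq).

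Of the 9 members that fell in *Camk2a*, 6 rose in *Rosa*. *Tbx3* alone of the T-box regions was not called (0.21, adjusted p = 0.0177), *Gata2* rose by 0.67 (SE 0.0739, adjusted p = 5.43e-18), *Foxf2* by 0.38 (SE 0.0635, adjusted p = 1.55e-08), *Foxl2* by 0.63 (SE 0.0843, adjusted p = 1.59e-12) and *Foxo1* by 0.19 (SE 0.0497, adjusted p = 0.000335). *Foxd2* rose by 1.27, *Tbx15* by 1.08, *Tbx1* by 0.76, *Foxp2* by 0.60, *Foxq1* by 0.56 and the first *Foxp4* region by 0.50. Single ChIP-Seq levels in *Rosa* were 108, 114 and 109 CPM for *Foxf2*, 48.7, 66.3 and 58.9 CPM for *Foxl2* and 17.4, 15.7 and 17.5 CPM for *Foxd2*. The call of *Foxo1* was lost without replicate 2 of *Rosa* tChIP-Seq (adjusted p = 0.0374). The regions that fell in *Rosa* tChIP-Seq were the second *Foxp4* region (-0.35, adjusted p = 0.00144), *Foxp1* (-0.26), *Foxk1* (-0.26), *Foxn2* (-0.23), *Foxo3* (-0.22) and *Foxj3* (-0.20). With library totals, which moved the median of all regions by 0.10, none of the 6 was called and 15 members were higher, among them *Tbx3* (adjusted p = 0.000427). Leaving out the lowest 40% of regions by count, which moved it by 0.148, 0 were lower and 8 higher. Without replicate 1 of *Rosa* tChIP-Seq, only 3 of the 6 were called. *Foxo4*, *Foxj2*, *Foxk2* and *Foxm1* were called in no comparison.

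**Figure D4:**
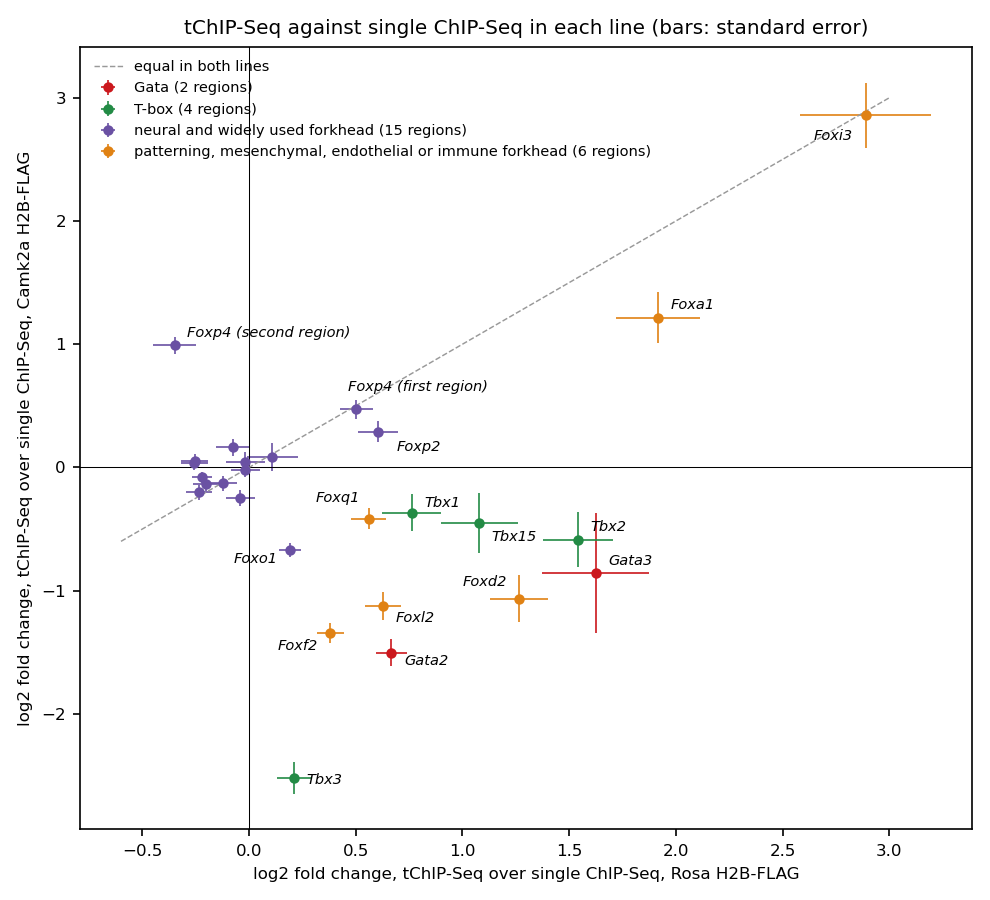
Log2 fold change of tChIP-Seq over single ChIP-Seq in *Rosa* (horizontal) and in *Camk2a* (vertical) for the 27 member regions, with standard errors as bars, colors for the gene groups and a dashed line where both are equal. T-box, Gata and patterning forkhead regions other than *Foxi3* and *Foxa1* lie to the right of 0 and below 0, and the second *Foxp4* region lies at -0.35 and 0.99.

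Related genes were read from lists chosen with earlier results known. Of 13 genes whose products bind Gata factors or act with them in blood progenitors, 8 had 11 regions at a TSS. Of these, 7 were lower and 1 was higher between the lines in tChIP-Seq, with a median log2FC of -0.45, against 14.6% and 17.0% of all regions, and 0 were called in single ChIP-Seq. *Tal1* changed by -2.13 (adjusted p = 6.86e-18), *Ets1* by -2.30 and -0.45 at its 2 starts and *Runx1* by -1.69 and -1.08, whereas *Zfpm1* (0.09, adjusted p = 0.316) and *Zfpm2* (0.21, adjusted p = 0.0363), which bind Gata proteins directly, were not called and *Cbfa2t3* rose by 0.31 (adjusted p = 0.000356). Of the T-box genes outside the naming rule, *Eomes* was lower (-1.10, adjusted p = 0.000102), *Mga* (-0.26, adjusted p = 0.0815) and Brachyury (T, 0.39, adjusted p = 0.359) were not called, and no region overlapped a TSS of *Tbr1*.

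Upstream of Foxo, 19 of 20 genes of insulin and Akt signaling had 23 regions, of which 4 were higher and 2 lower in *Camk2a* tChIP-Seq (median log2FC 0.07). The share higher was near the 17.0% of all regions and the share lower was under the 14.6%. A region of *Sgk1*, a kinase that phosphorylates Foxo proteins, rose by 0.99 (adjusted p = 9.78e-16), one of *Pik3r1* by 0.57 (adjusted p = 3.10e-09), *Ywhag* by 0.41 and *Akt1* by 0.32, while *Pik3cb* changed by -0.40 and *Pik3ca* by -0.26. Of 18 regions of 17 Foxo target genes, 0 were higher and 5 were lower (median -0.02), against 17.0% and 14.6% of all regions. They were *Pdk4* (-1.20, adjusted p = 1.23e-10), *Klf2* (-0.69, adjusted p = 3.44e-10), *Bcl6* (-0.41), *Fbxo32* (-0.35) and *Bcl2l11* (-0.33). In single ChIP-Seq, 1 region of each list was lower, those of *Usp7* and *Sesn3*.

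Markers of cell types moved between the lines in tChIP-Seq too, where 17.0% of all regions were higher and 14.6% lower in *Camk2a*. All 7 regions of 8 excitatory neuron genes were higher in *Camk2a*, with summed levels of 1089 to 1162 CPM against 404 to 439 CPM in *Rosa*. All 9 endothelial regions were lower (106 to 116 CPM against 390 to 396), as were all 6 astrocyte regions (119 to 120 CPM against 407 to 479). Of the mural, fibroblast and meningeal regions 6 of 8 were lower (78.7 to 87.3 CPM against 261 to 274), of the oligodendrocyte regions 7 of 9 with 1 higher, of the inhibitory neuron regions 6 of 8, and of the choroid plexus and ependymal regions 1 of 3. The lower regions of the mural list were those of *Foxc1*, *Foxc2*, *Foxd1*, *Notch3*, *Pdgfrb* and *Col1a2*, whereas *Col1a1* and *Kcnj8* were not called. The lower region of the choroid plexus list was that of *Foxj1*, whereas *Rsph1* and *Kl* were not called. No region overlapped a TSS of the 9 microglia and blood cell genes, so this list gave no reading of those cells. The paper showed a peak at the microglia marker *Cd40* in *Rosa* tChIP-Seq that was depleted in *Camk2a* tChIP-Seq. In single ChIP-Seq, 0.928% of all regions were higher and 1.22% lower in *Camk2a*. There, 3 of the 9 oligodendrocyte regions were lower, with sums of 447 to 462 CPM in *Camk2a* against 496 to 517 CPM in *Rosa*. Of the excitatory regions 1 was higher, that of *Camk2a* itself (log2FC 0.52, adjusted p = 3.74e-27), and the others were not called. The *Camk2a* region read 250 ± 12.1 CPM in the *Camk2a* line and 174 ± 2.42 CPM in *Rosa* (SD, n = 3 each). The excitatory sums, which include that region, were 919 to 955 CPM against 851 to 855 CPM. In the other marker lists with a region, 0 were called, and the endothelial sums were 309 to 311 CPM in *Camk2a* and 293 to 315 CPM in *Rosa*. The part of these cell types in the Gata, T-box and forkhead differences was not tested.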

How the data were processed

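H3K4me3 ChIP-Seq libraries from mouse cerebral cortex were analysed (12 libraries, 4 groups of 3). The other 12 libraries of the series, input and FLAG, were not analysed here. The authors removed reads from repeats with Bowtie2 2.1.0, mapped the rest to mm9 with Bowtie 1.0.0, dropped duplicate reads, used MACS to find peaks and bedtools 2.17.0 to count the reads in each, and they deposited these whole-number counts without normalization on a single list of 17993 regions. How the peaks of the groups were merged into that list is not given in the sources used here. Reads from repeats and duplicates are thus absent from all values.

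Groups came from the genotype and antibody labels. Each comparison of 2 groups was fitted on its 6 libraries, and the interaction on 12, with edgeR 4.0.16 (R 4.3.3), TMM, glmQLFit and glmQLFTest, no filter, and Benjamini-Hochberg adjustment over all regions. SE was obtained as |log2FC| over the root of the F statistic. log2FC values (log2 fold changes) use the TMM factors of their own fit, whereas CPM uses those of the 12 libraries. The scripts were tested on simulated data. The members, lists, tests and named regions were chosen with earlier results of these data known. Values in every library are given for called members with the largest change in each comparison (up to 12 per direction between the lines in tChIP-Seq, without overlap of the groups, and up to 4 per direction elsewhere), for the 4 highest and 4 lowest members per kb and for all regions of such a gene. Genes and TSSs were read from GENCODE M1, and sequences from the mm9 genome. Gene lists were Gata partners, T-box genes outside the rule, genes upstream of Foxo, Foxo targets and markers of 8 cell types. Forkhead genes were also divided by list into a patterning group and a neural or widely used group.

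Total counts per library ranged from 1457261 to 8644574, so that tChIP-Seq of *Rosa* was the shallowest. Between replicates, chi-square per df lay between 1.03 and 1.09, little above the value for counting noise. The study calls its repeated experiments independent, but no source used here says that replicates came from separate animals, so the p-values measure the spread between these libraries, which may be technical. Alternatives were other scalings, DESeq2 1.42.0, filters on low counts, other thresholds, a replicate block, leaving out each library, all 12 libraries in a single fit and other member rules.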

Additional observations from a re-analysis of the deposited data

Results flagged for a closer look

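For 14 of the 27 members, the effect of the line differed between tChIP-Seq and single ChIP-Seq by the interaction term (edgeR, adjusted p under 0.01). The term was -2.72 on the log2 scale for *Tbx3*, -2.47 for *Gata3*, -2.32 for *Foxd2*, -2.16 for *Gata2*, -2.12 for *Tbx2*, -1.74 for *Foxl2*, -1.71 for *Foxf2*, -1.52 for *Tbx15*, -1.12 for *Tbx1*, -0.96 for *Foxq1* and -0.85 for *Foxo1*. It was 0.30 for *Foxp1*, 0.32 for *Foxk1* and 1.35 for the second *Foxp4* region. The groups of 3 libraries are too small to flag a single library as far from the others.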

How the results depend on the processing

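Of 64 calls of member regions over the 5 comparisons, 48 were made under every alternative that tested the region, 16 were lost under at least 1 and none changed sign. All calls of the Gata and T-box regions and of *Foxd2*, *Foxf2*, *Foxl2*, *Foxq1* and the second *Foxp4* region between the lines in tChIP-Seq were among those kept. In that comparison, 3 higher became 1 with library totals, DESeq2 or a threshold of 0.001 and 1 to 3 with a library left out (1 without replicate 2 of *Rosa* tChIP-Seq), and 12 lower became 7 without the 40% lowest regions, where 20 members were tested. Over all regions, DESeq2 called 27 higher and 7 lower between the lines in single ChIP-Seq, against 167 and 219 with edgeR. In that comparison, the 1 lower region became 0 with DESeq2, 2 at a threshold of 0.05 and 0 to 1 with a library left out. For tChIP-Seq against single ChIP-Seq in *Rosa*, 6 lower became 0 with library totals and 0 without the 40% lowest regions, where 14 higher became 8, and 3 to 6 with a library left out. In *Camk2a*, 5 higher became 10 when a TSS within 1000 bp sufficed. For the interaction, 3 higher became 1 with library totals, without the 40% lowest regions or at 0.001 and 1 to 3 with a library left out, and 11 lower became 7 without the 40% lowest regions. Between the lines in tChIP-Seq, 12 lower became 7 because *Foxd2*, *Gata3*, *Tbx1*, *Tbx15* and *Tbx2* were not tested under that filter. In the other comparisons fewer members were tested under it too. The 6 regions lower in *Rosa* tChIP-Seq than in single ChIP-Seq were all tested under it, however, and none was called. Their adjusted p (edgeR) ranged from 0.0981 for the second *Foxp4* region to 0.518 for *Foxj3*. The interaction terms of *Foxk1* and *Foxp1* were also tested under it and not called (adjusted p = 0.021 and 0.0276). What caused these losses was not tested. The correlation of deviations of same-numbered libraries ranged from -0.01 to 0.03. Since replicates differed by little more than counting noise, this cannot tell whether same-numbered libraries shared a lysate. A fit with the number as a replicate block gave the same counts of members higher and lower. These were 3 and 12, 0 and 1, 14 and 6, 5 and 9, and 3 and 11. *Foxa1* in tChIP-Seq was called lower with library totals (adjusted p = 0.00479) and without replicate 3 of *Rosa* tChIP-Seq (0.00595). Values that were not called changed sign in 81 of 969 refits, by at most 0.184 in size. Depth limits the members with few reads, above all *Gata3* and *Foxi3*.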

Other observations

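Some genes of these families missed the rule by their symbol or by the position of the region. *Foxf1* is named *Foxf1a* in the annotation used, with a letter after the number, and its region (chromosome 8, 123606152-123610173) read 73.6, 78.1 and 89.2 CPM in *Rosa* tChIP-Seq and 43.0, 39.7 and 38.3 CPM in *Camk2a* tChIP-Seq, with a log2FC of -0.97 (SE 0.107, adjusted p = 9e-13) and no overlap. It was not called in single ChIP-Seq (-0.14, adjusted p = 0.330). *Foxs1*, a factor of pericytes and neural crest, had a region 202 bp from its TSS with 14.8 ± 7.11 CPM in *Rosa* tChIP-Seq and 1.41 ± 0.749 CPM in *Camk2a* tChIP-Seq (SD, n = 3 each), a log2FC of -3.29 (SE 0.387, adjusted p = 1.30e-11). *Foxe3*, the lens factor, had a region 250 bp away that was lower in *Camk2a* tChIP-Seq (-1.18, SE 0.254, adjusted p = 6.83e-05). In all, 10 regions lay within 1000 bp of a TSS of these genes but not on one. Between the lines in tChIP-Seq, 2 of them were lower, 0 were higher and 8 were not called. Over all regions, 14.6% were lower and 17.0% were higher.

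Of the 10 regions within 1000 bp of a TSS of these genes but not on one, 6 were higher in *Rosa* tChIP-Seq than in *Rosa* single ChIP-Seq and 0 were lower, against 24.7% and 22.5% of all regions. In *Camk2a*, 5 were higher and 2 were lower, against 25.3% and 22.6%. All but the regions near *Foxh1* and *Foxa3* lay under the limit of 25 CPM in single ChIP-Seq. Of all regions under that limit, 48.6% were higher in *Rosa* and 38.0% in *Camk2a*. *Tbx21*, the T-box factor of T helper cells, rose by 2.66 (adjusted p = 4.80e-22), *Foxn4* by 2.88 (adjusted p = 1.06e-13) and *Foxb2* by 2.27 (adjusted p = 5.82e-11), from single ChIP-Seq means of 2.35, 1.09 and 1.79 CPM. In *Camk2a* these 3 regions rose as well, by 2.03, 1.90 and 1.24, whereas *Foxs1* rose by 0.94 in *Rosa* and changed by -2.29 in *Camk2a* (adjusted p = 2.55e-08), and *Foxe3* rose in *Rosa* by 2.46 and was not called in *Camk2a* (0.81, adjusted p = 0.0125). The regions near *Foxh1* and *Foxa3* also hold the TSSs of *Ppp1r16a* and *Sympk* and were called in no comparison.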
